A study of Mus musculus with 6 samples.

Results

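The MLL-AF9 leukemia stem cell program is described here by 10 genes, chosen by name out of the 27179 genes listed: Myb, Myc, Mycn, Mef2c, Mecom, Eya1, Jmjd1c, Hmgb3, Hmga1 and Cbx5. Their expression was compared in leukemia-initiating cells (LICs) of mice, the cells that can start the leukemia again in a new host. Bulk RNA-seq was available from 3 libraries labelled Asic3-null (Asic3-/-) and 3 labelled WT, all of the C57BL/6 strain and given as 8 weeks of age. Asic3 encodes a proton-gated ion channel of the cell surface. In both groups, lineage-negative fetal liver cells had received MLL-AF9 from a retrovirus that also carries a YFP reporter. The cells were transplanted into lethally irradiated mice. Both groups thus carry the fusion oncogene and differ by label in Asic3, which the paper describes as knocked out in the null mice. The Asic3 RNA values given below run against these labels. LICs were sorted from bone marrow as YFP+Mac-1+c-Kit+ cells. Whether each library came from a separate leukemia is not given in the sources used here, so p-values measure the spread between these libraries.

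The MLL-AF9 fusion joins the DNA-binding part of the histone methyltransferase MLL to AF9, a subunit of complexes that release paused RNA polymerase II. The fusion holds a set of genes of early blood progenitors active in myeloid cells, and the leukemia depends on their products. Among them are transcription factors (MYB, MYC, MEF2C), a transcriptional coactivator with a phosphatase domain (EYA1) and proteins that bind or modify chromatin (JMJD1C, HMGB3, HMGA1, CBX5).

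A coding sequence of the list occurs at 2 loci, so it is shown first. Hmga1 on chromosome 17 (GRCm38, chr17:27556574-27563672) and Hmga1b on chromosome 11 (chr11:120762794-120764392) have the same 321-base coding sequence, with 0 differing bases. The first 120 coding bases, read from the GENCODE M21 transcripts at chr17:27559569-27559688 and chr11:120762889-120763008 on the plus strand, are given once for both. The capitals (bases 76 to 87, counted from the first base of the coding sequence) encode the core of the first AT-hook, the short motif by which HMGA1 binds the minor groove of AT-rich DNA.
Hmga1 and Hmga1b coding start: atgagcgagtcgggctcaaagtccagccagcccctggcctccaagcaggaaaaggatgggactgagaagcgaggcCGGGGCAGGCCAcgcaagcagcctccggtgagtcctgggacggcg

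The windows around the annotated starts of these loci differ. Both are RefSeq sequences of GRCm38.p6, from 250 bases before to 50 bases after the start, with each CG dinucleotide in capitals. Of 2 annotated Hmga1 windows, which overlap and hold 40 and 38 CG dinucleotides, the first is shown. It lies at chr17:27556324-27556623 (plus strand), whereas the Hmga1b window lies at chr11:120762544-120762843 (plus strand) and holds 8. The median over all 32817 promoter windows was 7.
Hmga1: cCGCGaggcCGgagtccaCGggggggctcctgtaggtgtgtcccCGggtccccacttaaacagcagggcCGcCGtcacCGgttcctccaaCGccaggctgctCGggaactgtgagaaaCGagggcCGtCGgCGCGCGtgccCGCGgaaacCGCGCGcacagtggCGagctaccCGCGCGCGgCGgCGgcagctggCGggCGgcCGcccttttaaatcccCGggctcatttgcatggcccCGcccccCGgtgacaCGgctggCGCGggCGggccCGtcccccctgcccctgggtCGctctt
Hmga1b: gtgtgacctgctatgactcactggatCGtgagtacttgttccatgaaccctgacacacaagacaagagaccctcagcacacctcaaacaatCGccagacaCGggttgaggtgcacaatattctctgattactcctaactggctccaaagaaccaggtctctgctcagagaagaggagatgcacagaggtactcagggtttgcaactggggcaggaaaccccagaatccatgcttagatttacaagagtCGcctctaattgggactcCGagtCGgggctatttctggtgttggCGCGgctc

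Of the 10 genes, 8 had a mean RPKM (reads scaled to transcript length and library size) of at least 1 over the 6 libraries and were tested; Mycn and Mecom were not. Eya1 rose 2.43-fold (on the RPKM + 1 scale) in the libraries labelled Asic3-null and was the 1 gene of the 8 that passed an adjusted p of 0.05 in limma's moderated test on log2(RPKM + 1). By the same test 3.35% of the 12037 genes tested were called, 0.523% higher and 2.82% lower. Over the 8 genes the median log2 fold change was 0.40, against 0.03 over all tested genes, and 7 of 8 had a positive estimate. Of the 8, 4 (Eya1, Hmga1, Mef2c and Myb) had an unadjusted p under 0.05 with a higher level, as did 6.43% of all genes tested. In 5 of 8 (the same 4 and Cbx5) all libraries labelled Asic3-null lay above all labelled WT, as did 11.2% of all genes tested. None of the 8 lay below without overlap, against 11.4%. The genes were chosen with earlier results of these data known, so these counts are a description.

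**Figure D1:**
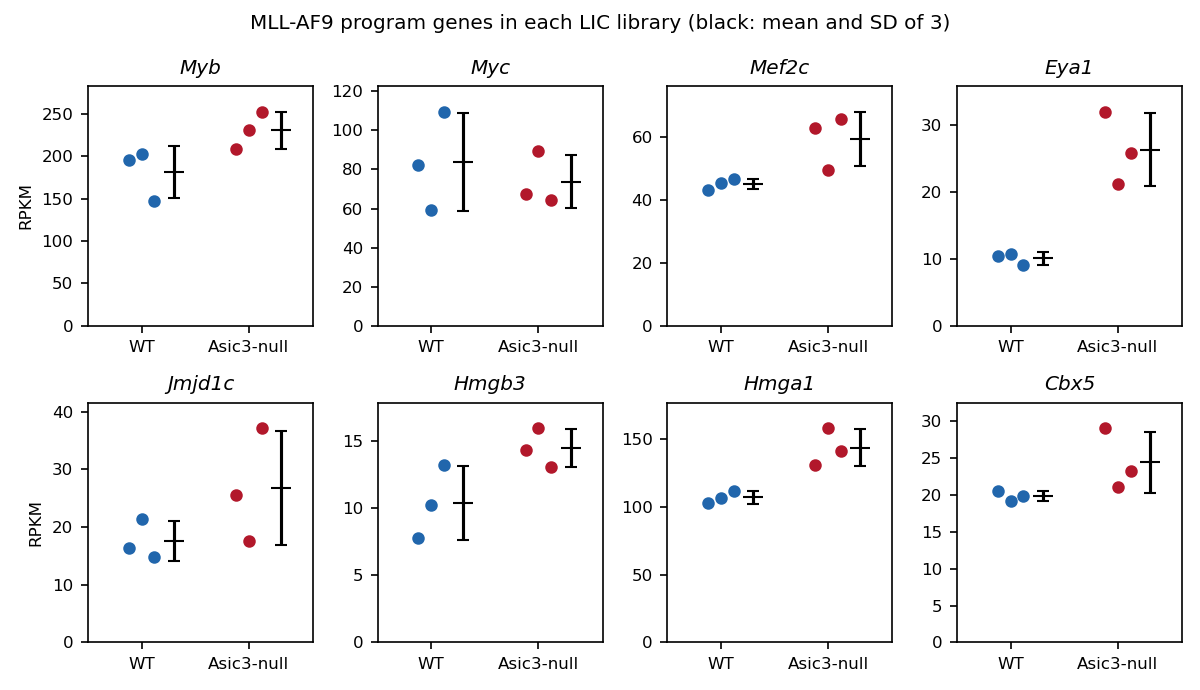
RPKM (vertical axis, from 0) of the 8 tested genes in the 3 libraries labelled WT (blue) and the 3 labelled Asic3-null (red), 1 point per library, with the mean and SD of each group in black. The groups of Eya1, Hmga1, Mef2c, Myb and Cbx5 do not overlap, and those of Myc, Jmjd1c and Hmgb3 do.

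Several facts of the libraries stand beside every value that follows. Library sizes recovered from the RPKM values were 1947168 to 2381861 reads. Asic3 itself was at 9.12, 4.11 and 6.58 RPKM with the Asic3-null label and at 1.22, 1.85 and 0.435 RPKM with the WT label, which runs against the labels (log2 fold change 1.81, limma adjusted p = 0.026). That call was lost in 7 of 14 alternatives, among them leaving out Asic3-null 1, Asic3-null 3, WT 1 or WT 3 (adjusted p = 0.0768 to 0.111), and a gene-level value does not show whether the reads fall in the deleted part. The summed RPKM of 4 Y-linked genes was 0 in every library labelled Asic3-null and ranged from 81.4 to 118 with the WT label, so sex and genotype label cannot be told apart. All 12 of 12 neutrophil maturation markers were called lower by limma, against 2.82% of all genes tested. Their summed levels were 361 to 550 RPKM against 4481 to 5435 RPKM. Itgam, the gene of the sorted integrin Mac-1, fell by 2.35 on the log2 scale (limma adjusted p = 0.00072), and Kit was at 14.4, 17.9 and 20.4 RPKM against 9.09, 15.3 and 8.97 RPKM (adjusted p = 0.219). In bulk RNA, fewer cells of a type and less RNA per cell cannot be told apart, and the part of these differences in the values below was not tested. Summed T cell markers were at or below 1.72 RPKM with 3 of 6 at 0 throughout, and summed erythroid markers were 0.972 to 2.41 RPKM against 2.84 to 10.3 RPKM with 1 of 6 at 0 throughout. The B cell list summed to 37.3 to 49.996 RPKM, nearly all of it Cd79b, with 2 of 6 at 0 throughout, Ms4a1 among them.

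Among the transcription factors, Myb (GRCm38, chr10:21124930-21160984) was the most abundant gene of the program. MYB keeps progenitors immature and cycling, and MLL-AF9 cells depend on it. Its level was 209, 230.4 and 252 RPKM with the Asic3-null label and 196, 202 and 147 RPKM with the WT label. The groups did not overlap, and WT 3 lay well below the other libraries. Means of 231 ± 21.8 and 181 ± 30.2 RPKM (SD, n = 3 in both) gave a log2 fold change of 0.35 with a 95% interval of 0.01 to 0.69 that did not pass the adjustment over all genes (limma adjusted p = 0.297). Without WT 3 the log2 fold change was 0.21. Of its 50-base transcript windows, 4.1% also occur in other transcripts.

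Two-sided permutation of the labels cannot give a p under 0.10 with 3 libraries against 3, and the exact permutation p was 0.1 for each of the 5 genes without overlap. Myb made up 88.4% ± 2.17 of the summed RPKM of its family (Myb, Mybl1, Mybl2) with the Asic3-null label and 87.9% ± 4.63 with the WT label (SD, n = 3; exact permutation p = 0.9). Its paralog Mybl2, a cell cycle factor, was at 29.3, 34.7 and 25.0 RPKM against 17.3, 23.0 and 30.01 RPKM (limma adjusted p = 0.467).

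Genes that MYB is known to activate had estimates of both signs. Of 11 listed, all were tested, 5 had a positive and 6 a negative estimate, and 1 was called, in the lower direction (2.82% of all genes tested). At an unadjusted p under 0.05, 2 were higher (6.43% of all genes), Kit and Ctsg, and 1 was lower (9.45% of all genes). Kit, whose values stand above, had the largest positive estimate of the list, 0.64. The called gene was Elane, the neutrophil elastase of the primary granule, at 631, 865 and 979 RPKM against 1203, 1621 and 1711 RPKM (log2 fold change -0.88, limma adjusted p = 0.0435). All libraries labelled Asic3-null lay below those labelled WT. Leaving out any one of the 6 libraries lost that call (adjusted p = 0.0586 to 0.165). Ctsg, the cathepsin stored in the same granule, was at 1131, 1735 and 1317 RPKM against 916, 943 and 1227 RPKM (adjusted p = 0.289), so the estimates of these granule genes had opposite signs. The MYB coactivators Crebbp, Ep300, Kat6a and Taf12 gave 0 calls of 4 (3.35% of all genes tested), with log2 fold changes of -0.22 to 0.20. At an unadjusted p under 0.05 there was also 0 of 4, against 6.43% higher and 9.45% lower over all genes. With 4 genes, counts of 0 cannot be told apart from these shares.

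Myc (chr15:61985341-61990361), the driver of cell growth and ribosome production, was the 1 tested gene of the program with a negative estimate. Its level was 67.5, 89.4 and 64.3 RPKM with the Asic3-null label and 82.5, 59.3 and 109.5 RPKM with the WT label. The Asic3-null values lay within the WT range, and the spread in both groups was wide, with coefficients of variation of 18.6% and 30.01%. The log2 fold change was -0.15 with a 95% interval of -0.66 to 0.36 (limma adjusted p = 0.786), and it turned to 0.06 without WT 3. Mycn was at 0.323 RPKM in Asic3-null 2 and listed at 0 in the other 5 libraries, below the 0.970 to 1.19 RPKM that 3 reads would give, so no difference was detectable at this depth. Myc made up 94.8% to 98.1% of the summed RPKM of Myc, Mycn and Mycl.

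The listed partners and antagonists of MYC gave 0 calls of 10 tested (3.35% of all genes tested). At an unadjusted p under 0.05, 1 gene was lower, as were 9.45% of all genes tested. That gene was Mxd1, which encodes a MAX partner that opposes MYC and rises in maturing myeloid cells. It was at 11.9, 8.38 and 10.9 RPKM against 14.7, 16.9 and 17.7 RPKM, without overlap between the groups (log2 fold change -0.62, limma adjusted p = 0.121). Mycl was likewise lower without overlap, at 2.10, 1.44 and 2.31 RPKM against 4.48, 3.08 and 2.53 RPKM (adjusted p = 0.356). These were the 2 of 10 lower without overlap, against 11.4% of all genes tested. Mxd4, another antagonist of the same family, was at 34.1, 39.2 and 51.7 RPKM against 35.1, 35.7 and 29.4 RPKM, with overlap and a positive estimate (log2 fold change 0.29, adjusted p = 0.456). Mlx, which dimerizes with MXD1 and MNT, and Max, the obligate dimer partner, had log2 fold changes of 0.09 and -0.08 (adjusted p = 0.827 and 0.809).

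Ribosome, metabolic and cell cycle genes that MYC activates are a common readout of the protein. Of 30 listed, 26 had a positive and 4 a negative estimate, with a median log2 fold change of 0.19. None passed the adjustment, against 3.35% of all genes tested. At an unadjusted p under 0.05, 1 of 30 was higher, against 6.43% of all genes tested. Over all tested genes 6566 of 12037 estimates were positive. The listed gene with the lowest p was Npm1, the nucleolar chaperone nucleophosmin, at 215, 237 and 178 RPKM against 140.1, 167 and 176 RPKM (log2 fold change 0.38, adjusted p = 0.252). Grwd1, a ribosome assembly factor, had the largest estimate, 0.50 (adjusted p = 0.381), and stood at 43.0 RPKM in Asic3-null 2 against 17.8 to 23.1 RPKM in the other 5 libraries. Mybbp1a, a nucleolar protein that binds MYB, was at 122, 164 and 117 RPKM against 97.7, 98.0 and 127 RPKM (adjusted p = 0.401).

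The MYC targets also varied between libraries of the same label. As the median of log2(RPKM + 1) minus each gene's mean over the 6 libraries, the 30 targets stood at -0.12, 0.37 and -0.03 with the Asic3-null label and at -0.21, -0.17 and 0.11 with the WT label. On that scale Myc stood at -0.19, 0.21 and -0.26 against 0.10, -0.37 and 0.50. In both groups the highest library was the same for Myc and for the targets (Asic3-null 2 and WT 3), while the other 2 libraries ranked in opposite order, and WT 3 had more Myc than Asic3-null 2 but a lower target median. The median over all tested genes stayed between -0.02 and 0.02.

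**Figure D2:**
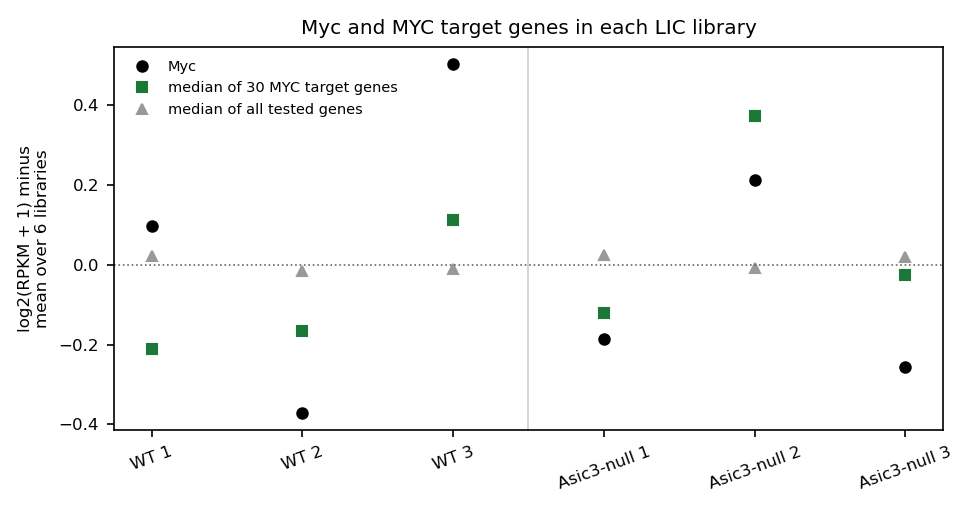
Myc (black circles), the median of 30 MYC target genes (green squares) and the median of all tested genes (gray triangles) in each of the 6 libraries, as log2(RPKM + 1) minus the mean over the libraries. Asic3-null 2 and WT 3 hold the highest Myc and target median of their groups, the other 2 libraries of each group rank in opposite order for Myc and for the targets, and the median of all tested genes stays near 0.

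Mef2c (chr13:83504017-83667079) encodes a MADS-box transcription factor of lymphoid and early myeloid progenitors that supports homing and invasion of MLL leukemias. It was at 62.8, 49.3 and 65.5 RPKM with the Asic3-null label and 43.2, 45.2 and 46.4 RPKM with the WT label. The groups did not overlap, with a narrow WT group and Asic3-null 2 close to it. The means of 59.2 ± 8.66 and 44.9 ± 1.63 RPKM (SD, n = 3) gave a log2 fold change of 0.38 with a 95% interval of 0.05 to 0.71 (limma adjusted p = 0.241). As a share of the 4 MEF2 genes, Mef2c stood at 37.4% ± 4.33 against 35.6% ± 0.55 (SD, n = 3; exact permutation p = 0.5).

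The other abundant MEF2 genes had estimates of opposite sign. Mef2d was at 84.8, 94.6 and 86.8 RPKM against 58.4, 68.9 and 70.4 RPKM, all higher (log2 fold change 0.43, limma adjusted p = 0.135). Mef2a was at 9.76, 8.03 and 9.62 RPKM against 17.7, 14.995 and 11.6 RPKM, all lower (log2 fold change -0.62, adjusted p = 0.153). Neither passed the adjustment. The 9 listed regulators of MEF2 proteins gave 0 calls (3.35% of all genes tested). At an unadjusted p under 0.05, 1 gene was lower, against 9.45% of all genes tested. It was Mapk7, the kinase ERK5 that activates MEF2 factors, at 15.7, 15.015 and 18.0 RPKM against 25.8, 23.4 and 19.6 RPKM (log2 fold change -0.47, adjusted p = 0.203). Hdac9 and Hdac5, class IIa deacetylases that repress MEF2 targets, had estimates of -0.51 and -0.19 (adjusted p = 0.411 and 0.581). The Hdac9 estimate rests on few reads, 3, 6 and 6 with the Asic3-null label against 9, 7 and 9.

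Mecom, whose product EVI1 marks stem cell-like MLL leukemias, was at 0.0933 RPKM in WT 2, which is 1 read, and listed at 0 in the other 5 libraries. A count of 3 reads would give 0.229 to 0.280 RPKM, so no difference was detectable at this depth. Its paralog Prdm16 was listed at 0 in all 3 libraries labelled Asic3-null and in WT 1, and at 0.298 and 0.491 RPKM in WT 2 and WT 3.

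Eya1 (chr1:14168953-14311035) had the lowest p and the largest fold change of the program. EYA1 has no DNA-binding domain of its own and acts on genes through DNA-binding partners. It was at 32.0, 21.2 and 25.8 RPKM with the Asic3-null label and 10.5, 10.8 and 9.04 RPKM with the WT label, from 322, 219 and 263 reads against 96, 91 and 93. The groups were far apart, with Asic3-null 2 nearest to the WT range. Means of 26.3 ± 5.44 and 10.1 ± 0.927 RPKM (SD, n = 3 in both) gave a log2 fold change of 1.28 with a 95% interval of 0.86 to 1.70 (limma adjusted p = 0.0072). The call held with each library left out in turn, with log2 fold changes of 1.14 to 1.42 (adjusted p = 0.0104 to 0.0495). It came closest to the threshold without Asic3-null 3. No 50-base window of its transcripts occurs in another gene's transcript.

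Within its family, Eya1 and Eya3 carried nearly all of the signal. Eya1 made up 70.9% ± 1.28 of the summed RPKM with the Asic3-null label and 51.7% ± 2.41 with the WT label (SD, n = 3; exact permutation p = 0.1, the smallest possible). The shares did not overlap, at 70.1% to 72.4% against 49.2% to 54.0%. Eya3 was at 13.6, 8.81 and 9.83 RPKM against 8.97, 9.88 and 9.35 RPKM (log2 fold change 0.16, adjusted p = 0.744). Eya4 was listed at 0 throughout, and Eya2 at 0.178 RPKM, 1 read, in Asic3-null 2 and 0 elsewhere.

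**Figure D3:**
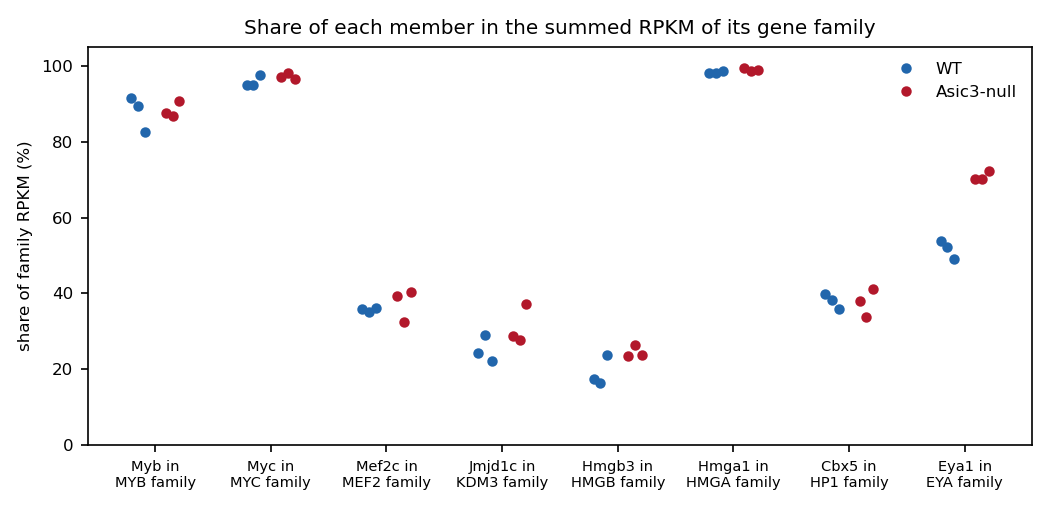
Share (%) of each tested gene of the program in the summed RPKM of its gene family, 1 point per library, labelled WT in blue and labelled Asic3-null in red. The shares of Eya1 do not overlap between groups (49.2% to 54.0% and 70.1% to 72.4%), and the shares of Myb, Myc, Mef2c, Jmjd1c, Hmgb3, Hmga1 and Cbx5 do.

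Dach1, a corepressor of the network in which EYA1 acts, was at 5.95, 3.37 and 5.95 RPKM with the Asic3-null label and 3.19, 3.24 and 4.28 RPKM with the WT label. The groups overlapped through Asic3-null 2, and the log2 fold change was 0.39 (limma adjusted p = 0.494). Dach2 was listed at 0 throughout.

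**Figure D4:**
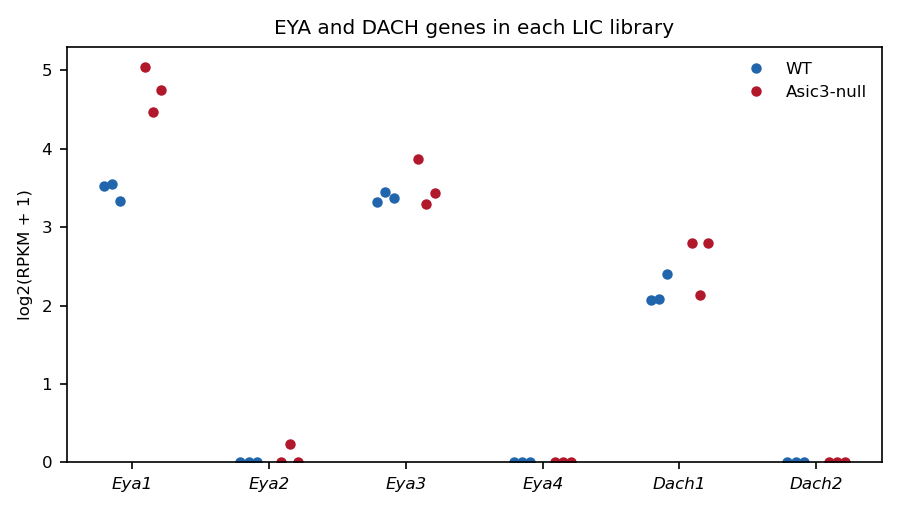
log2(RPKM + 1) of the 6 EYA and DACH genes in the 3 libraries labelled WT (blue) and the 3 labelled Asic3-null (red), 1 point per library. Eya1 lies higher in all libraries labelled Asic3-null, Eya3 and Dach1 overlap between groups, and Eya2, Eya4 and Dach2 lie at or near 0.

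The tested genes whose profile lay nearest to Eya1, by the root mean square distance between centred log2(RPKM + 1) values over the 6 libraries, were Plcd3 (distance 0.0786), 5730408K05Rik (0.151) and Cchcr1 (0.158). Plcd3, which encodes a phospholipase C, was at 6.70, 4.29 and 4.64 RPKM against 1.73, 1.69 and 1.53 RPKM. They were picked for this likeness, which follows the same split between labels.

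Among the chromatin proteins, Hmga1 was the most abundant. HMGA1 bends DNA and opens chromatin in stem and progenitor cells. It was at 131, 158 and 141 RPKM with the Asic3-null label and 103, 106 and 112 RPKM with the WT label. The groups did not overlap, and the WT group was narrow. The means of 143 ± 13.6 and 107 ± 4.72 RPKM (SD, n = 3) gave a log2 fold change of 0.42 with a 95% interval of 0.14 to 0.69, which did not pass the adjustment (limma adjusted p = 0.122).

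The value cannot be assigned to one locus, because 55.0% of the 50-base windows of Hmga1 transcripts also occur in Hmga1b. Hmga1b was listed at 159, 198 and 174 RPKM against 131, 133 and 140.3 RPKM (log2 fold change 0.39, limma adjusted p = 0.157). Its profile was the nearest of all tested genes to that of Hmga1 (distance 0.0229), the locus with the same coding sequence shown above, followed by Mrps30 (0.0332) and Exo1 (0.0419). With both loci summed, the log2 fold change was 0.40 (adjusted p = 0.126). Hmga2, the fetal paralog, was at 0.827 to 2.21 RPKM over the 6 libraries, and Hmga1 made up at least 98.0% of the summed RPKM of Hmga1 and Hmga2.

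Hmgb3 (chrX:71555917-71560673), an HMG-box protein that binds bent DNA and balances self-renewal in progenitors, had the lowest mean level of the 8 tested genes over all 6 libraries. It was at 14.3, 15.97 and 13.1 RPKM, from 55, 63 and 51 reads, with the Asic3-null label and 7.75, 10.2 and 13.3 RPKM, from 27, 33 and 52 reads, with the WT label. WT 3 lay within the other group. The log2 fold change was 0.46 with a 95% interval of -0.01 to 0.94 (limma adjusted p = 0.324), and 0.29 without WT 1. Of its transcript windows, 25.0% occur in other genes. Hmgb3 is X-linked, and the 345 tested X-linked genes had a median log2 fold change of 0.09. Hmgb1 and Hmgb2 had estimates of 0.01 and 0.03 (adjusted p = 0.988 and 0.959).

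Jmjd1c (chr10:67096351-67256326), a Jumonji-domain protein of the KDM3 family that MLL-AF9 cells require, had the largest coefficient of variation of the 8 tested genes with the Asic3-null label. It was at 25.6, 17.6 and 37.1 RPKM with the Asic3-null label and 16.3, 21.4 and 14.8 RPKM with the WT label. The groups overlapped through Asic3-null 2 and WT 2. The log2 fold change was 0.54 with a 95% interval of -0.05 to 1.13 (limma adjusted p = 0.353), and 0.28 without Asic3-null 3. Its span overlaps that of Reep3, at means of 14.6 and 15.5 RPKM, and the library kit does not mark strand. Kdm3a and Kdm3b had estimates of 0.08 and 0.17 (adjusted p = 0.88 and 0.622).

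Cbx5 (chr15:103191546-103239904) encodes HP1 alpha, which binds methylated lysine 9 of histone H3. It was at 29.1, 21.1 and 23.2 RPKM with the Asic3-null label and 20.6, 19.2 and 19.9 RPKM with the WT label. The groups did not overlap, by a narrow margin between Asic3-null 2 and WT 1. The log2 fold change was 0.27 with a 95% interval of -0.09 to 0.64 (limma adjusted p = 0.439), and 0.15 without Asic3-null 1. The other HP1 genes, Cbx1 and Cbx3, had estimates of 0.30 each (adjusted p = 0.432 and 0.54), and Cbx5 held 37.6% ± 3.62 and 38.0% ± 2.02 of the family (SD, n = 3; exact permutation p = 0.9).

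Partners of HP1 gave 0 calls of 10 (3.35% of all genes tested). At an unadjusted p under 0.05, 2 of 10 were higher (6.43% of all genes tested), and 3 of 10 were higher without overlap (11.2% of all genes tested). Suv39h1, the methyltransferase that writes the mark HP1 reads, was at 60.015, 52.3 and 54.0 RPKM against 36.9, 46.6 and 43.5 RPKM (log2 fold change 0.38, limma adjusted p = 0.222). Suv39h1 is X-linked, and sex cannot be told apart from the label in these libraries. Trim28, the corepressor KAP1, was at 204, 229 and 201 RPKM against 143, 171 and 193 RPKM (0.33, adjusted p = 0.289). In both genes all libraries labelled Asic3-null lay above those labelled WT, as they did in Suv39h2 (0.57, adjusted p = 0.347).

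**Figure D5:**
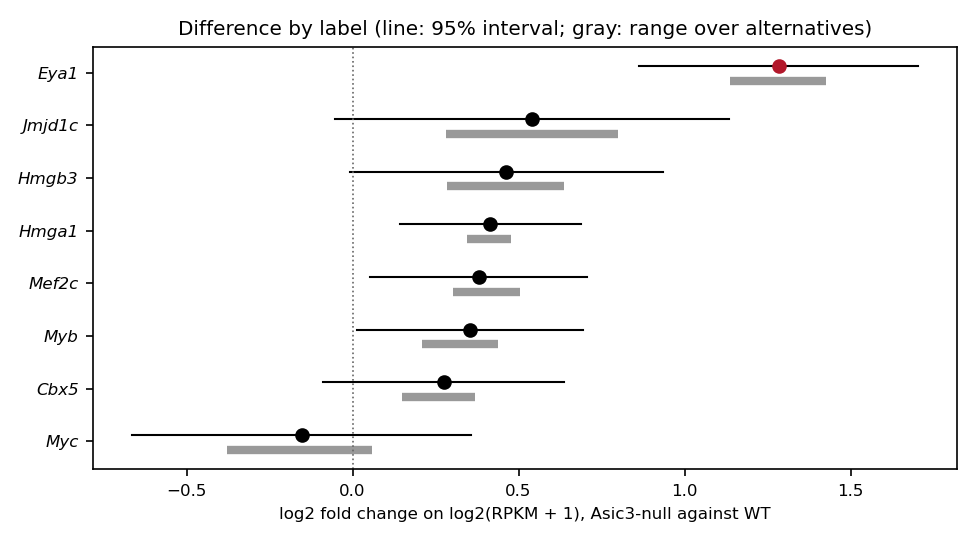
log2 fold change on log2(RPKM + 1) of the 8 tested genes, Asic3-null label against WT label, with the 95% interval as a black line and the range over all alternative settings as a gray bar; the red point passed an adjusted p of 0.05. Eya1 stands at 1.28, 6 genes lie between 0.27 and 0.54, and Myc lies at -0.15 with an interval that spans 0.

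The 8 genes did not share one pattern over the libraries. Among the libraries labelled Asic3-null, the second had the lowest levels of Mef2c, Eya1, Jmjd1c and Cbx5 and the highest of Myc, Hmgb3 and Hmga1. The closest pair of profiles was Mef2c and Cbx5 (root mean square distance 0.133), and the farthest was Myc and Eya1 (0.839). The coefficient of variation was larger in the libraries labelled Asic3-null for Mef2c (14.6% against 3.62%), Cbx5 (16.9% against 3.48%), Eya1 (20.7% against 9.17%), Jmjd1c (36.7% against 19.8%) and Hmga1 (9.49% against 4.41%). For Myb, Myc and Hmgb3 it was larger in those labelled WT.

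For Mef2c and Cbx5, the closest pair, 1 start window each is shown, the one that holds a motif match; of the 3 annotated windows of Mef2c the other 2 hold no MYB motif, and of the 2 of Cbx5 the other holds no E-box. Each is a RefSeq window of GRCm38.p6, 250 bases before to 50 bases after an annotated start, at chr13:83503784-83504083 (plus strand) for Mef2c and chr15:103239803-103240102 (minus strand) for Cbx5. Capitals mark matches, on either strand, to the E-box CACGTG bound by MYC and MAX (Cbx5) or to the MYB motif TAACNG (Mef2c), which do not overlap each other. These letters occur in 7.1% and 23.3% of all 32817 promoter windows. Each window shown was picked for its match from the 2 or 3 of its gene, so these per-window shares give no test. MEIS and HOX-PBX motifs were also searched. A match is a description of the sequence.
Mef2c: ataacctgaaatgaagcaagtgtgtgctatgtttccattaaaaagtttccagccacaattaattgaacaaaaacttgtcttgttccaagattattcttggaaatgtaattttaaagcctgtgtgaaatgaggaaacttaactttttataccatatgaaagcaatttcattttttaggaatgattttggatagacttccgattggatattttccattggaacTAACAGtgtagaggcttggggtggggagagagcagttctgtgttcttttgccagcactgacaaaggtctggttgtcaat
Cbx5: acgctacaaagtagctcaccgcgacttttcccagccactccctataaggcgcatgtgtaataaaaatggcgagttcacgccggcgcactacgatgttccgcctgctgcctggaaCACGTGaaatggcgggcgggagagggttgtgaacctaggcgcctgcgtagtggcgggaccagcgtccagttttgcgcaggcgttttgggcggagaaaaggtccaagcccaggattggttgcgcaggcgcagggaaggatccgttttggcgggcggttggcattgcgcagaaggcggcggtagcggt

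Of 21 other listed targets of MLL-AF9, 20 were tested and 2 were called (3.35% of all genes tested): Meis1 rose and Hoxa5 fell. At an unadjusted p under 0.05, 1 of 20 was higher (6.43% of all genes) and 4 of 20 were lower (9.45% of all genes). Meis1, the HOX cofactor that drives LIC frequency, was at 21.7, 28.2 and 35.3 RPKM against 14.2, 14.9 and 14.0 RPKM (log2 fold change 0.91, limma adjusted p = 0.0367). Its groups did not overlap, but it was no longer called without Asic3-null 2, Asic3-null 3 or any one of the 3 libraries labelled WT (adjusted p = 0.102 to 0.136).

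All 5 HOXA genes had negative estimates, from -0.30 to -0.96. Hoxa5 was at 15.6, 15.9 and 16.6 RPKM against 30.2, 24.1 and 31.3 RPKM (log2 fold change -0.78, limma adjusted p = 0.0287), a call that was lost without any 1 library except WT 2 (adjusted p = 0.0756 to 0.111). Hoxa9, a HOX gene that MLL-AF9 cells rely on, was at 67.1, 42.3 and 48.9 RPKM against 73.5, 73.5 and 87.8 RPKM (-0.58, adjusted p = 0.151). Hoxa10 was at 13.7, 7.35 and 11.1 RPKM against 21.3, 15.7 and 22.2 RPKM (-0.85, adjusted p = 0.112). All libraries labelled Asic3-null lay below those labelled WT in Hoxa5, Hoxa9 and Hoxa10. Over the 20 tested targets, 3 were lower without overlap and 2 higher, against 11.4% and 11.2% of all genes tested. Bcl2, the survival factor, was at 11.3, 10.7 and 13.4 RPKM against 10.004, 9.34 and 7.52 RPKM (0.36, adjusted p = 0.371).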

How the data were processed

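Total RNA of sorted LICs was sequenced after TruSeq RNA v2 library preparation, in 3 libraries labelled Asic3-null and 3 labelled WT. Base calling by the authors used CASAVA 1.8.2, and their alignment to GRCm38 used TopHat2 2.0.12. The deposited table gives RPKM for every gene in each library; the counting tool and annotation are not given in the sources used here. The smallest steps between RPKM values gave whole reads for all 16825 genes above 0 (within 0.0001 reads) and library sizes of 1947168 to 2381861, with a median of 83.3 reads per library for tested genes. Reads carry no molecular identifiers, so limits from them cover counting error only.

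The 12037 genes whose mean RPKM was 1 or more were tested by limma 3.58.1 (R 4.3.3) on the log2(RPKM + 1) scale (empirical Bayes with an intensity trend, genotype label only, two-sided, Benjamini-Hochberg over all tested genes, threshold 0.05). A log2 fold change on this scale understates the change of low genes. The steps were tested on simulated data, and the outcome is not reported here. RefSeq for GRCm38.p6 gave the positions and 25275 of 27179 symbols. The genes of the program and all lists were chosen with earlier results of these data known. Genes named are the 10 of the program, in each other list those past the threshold and, if under 3 passed, the 3 with the lowest p, paralogs, and the 3 tested genes nearest in profile to each of the 2 genes of the program with the lowest p; other genes named, such as Hoxa9, Max, Mlx, Bcl2 and the cofactors of MYB, were added after their values were seen, lists of markers and sex-linked genes are given mainly as sums and counts, and the other listed genes enter only the counts and medians or are not reported here. Alternatives were a pseudocount of 0.1, no filter, a minimum mean RPKM of 5, quantile normalization, scaling by median ratios, no trend, untransformed RPKM without moderation, limma-voom on recovered reads with TMM factors, a replicate block, each library left out and, added after the data were seen, Hmga1 and Hmga1b summed.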

Additional observations from a re-analysis of the deposited data

How the results depend on the processing

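Eya1 kept its direction and its call in 14 of 15 alternatives; on untransformed RPKM without moderation its log2 ratio was 1.30 (adjusted p = 0.204), so 0 genes of the program were called there and 4 over all genes, against 403 on the log scale. For Myb, Mef2c, Jmjd1c, Hmgb3 and Cbx5 all 15 alternatives, and for Hmga1 all 16, kept the direction and gave no call, and Hmga1 came closest under quantile normalization (adjusted p = 0.0596). Myc reversed to 0.0598 without WT replicate 3, and its estimates with 1 library left out ranged from -0.38 to 0.06. Genes called over the whole table numbered 172 to 258 with 1 library left out, where fewer samples enter the fit, and Eya1 was among them each time. Of 100 tested genes on the other 8 lists, 3 were called, against 3.35% of all genes tested; there were 1 without a filter on low values, 1 with no intensity trend, 0 on untransformed RPKM, 5 by limma-voom on recovered reads and 0 to 1 with 1 library left out. The cause of these shifts was not tested.

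The replicate numbers gave no pairing: deviations of same-numbered libraries correlated at 0.059, -0.059 and -0.123. With the replicate number as a block 246 genes were called, of which 235 were among the 403, along with Eya1 (adjusted p = 0.0238) and 1 of the other listed genes, while Meis1 and Hoxa5 were not called (adjusted p = 0.0761 and 0.0784). Depth limits the genes at or under 3 reads, Mycn and Mecom.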

Other observations

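Among the tested genes nearest to Eya1 in profile, 5730408K05Rik was at 20.2, 10.9 and 12.2 RPKM with the Asic3-null label and 4.95, 5.35 and 5.50 RPKM with the WT label (log2 fold change 1.26, limma adjusted p = 0.0243). Cchcr1 was at 7.47, 6.63 and 6.41 RPKM against 1.97, 2.51 and 2.22 RPKM (log2 fold change 1.28, adjusted p = 0.0118). Both were picked for a profile like that of Eya1, so their calls are a description.

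Granule enzymes of the promyelocyte were among the most abundant transcripts listed. Prtn3, proteinase 3, was at 1593, 1783 and 1624 RPKM with the Asic3-null label and 1716, 2139 and 2760.0 RPKM with the WT label (limma adjusted p = 0.317). Mpo, myeloperoxidase, was at 242, 337 and 286 RPKM against 191, 790 and 548 RPKM (adjusted p = 0.534), with WT 1 below every other library. These genes were named after their values were seen.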
